A study of Mus musculus with 5 samples.

Results

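BRG1 peaks were examined at 10 genes of the BCL2 family, which set whether a cell survives or dies by the mitochondrial route of apoptosis. The genes were a fixed list of names: Bcl2a1a, Bcl2a1b, Bcl2a1d, Mcl1, Bcl2, Bcl2l1, Bcl2l11, Bid, Bax and Bak1, 10 of the 21887 protein-coding genes in the annotation used. A peak counted for a gene when its summit, the position of highest signal, lay in the gene body or within 20 kb of it on mm10. This gave 35 of the 14951 peaks in the 4 lists: 7 of 4668 in oxLDL KO, 25 of 9907 in oxLDL WT, 1 of 139 in KO and 2 of 237 in WT. No windows of these genes overlapped each other, so no peak was counted for more than 1 of them. The farthest summit counted was an oxLDL WT one 19532 bp beyond Bcl2l1 (fold enrichment over local background 3.19), and the nearest not counted was an oxLDL WT one 28519 bp beyond Bak1 (fold enrichment 4.14).

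The libraries were chromatin immunoprecipitations of BRG1 from primary bone marrow-derived macrophages of Baf60a KO mice and of WT mice, either treated with oxLDL (oxidised low-density lipoprotein) or not. The groups were oxLDL KO, oxLDL WT, KO and WT, with 1 library each, and an input library without antibody was not analysed here. The labels state neither the kind of knockout, the strain, age and number of mice, nor the dose and time of oxLDL, and a peak list cannot check the loss of Baf60a. BRG1 is the motor subunit of SWI/SNF complexes, which slide and evict nucleosomes, and BAF60a (gene Smarcd1) is one of their other subunits. Since each group was a single library, differences below have no replicate error and carry no p-value.

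Proteins of the BCL2 family meet at the outer mitochondrial membrane. BAX and BAK form pores there that release cytochrome c. The survival proteins BCL2, BCL-XL (from Bcl2l1), MCL1 and A1 (from the Bcl2a1 genes) hold them back. BH3-only proteins such as BIM (from Bcl2l11) and BID tip the balance towards death. Macrophages that take up oxidised lipoprotein in an artery wall can die by apoptosis, and A1 and MCL1 are known survival factors of myeloid cells.

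Sequences upstream of the starts are shown for the Bcl2a1 copies, which differ in their peaks although nearly identical there, and for Bcl2l11 and Bcl2, where an oxLDL WT peak covered most of the stretch. They are from RefSeq on GRCm38.p6, the assembly of mm10. All 10 genes matched an entry in the promoter table, which holds the bases just upstream of each annotated start. The Bcl2a1 genes shown are near-identical copies on chromosome 9, and the same block upstream of their starts is shown for each copy, 5′ to 3′ on the strand of the gene. Capitals mark the bases that are not the same in all 3 copies, including a stretch missing from Bcl2a1d.
Bcl2a1d, minus strand, chr9:88731851-88732050: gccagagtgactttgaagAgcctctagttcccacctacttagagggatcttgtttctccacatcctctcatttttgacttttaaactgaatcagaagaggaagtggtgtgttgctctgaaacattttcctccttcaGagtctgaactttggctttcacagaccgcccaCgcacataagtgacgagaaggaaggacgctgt
Bcl2a1b, plus strand, chr9:89199023-89199228: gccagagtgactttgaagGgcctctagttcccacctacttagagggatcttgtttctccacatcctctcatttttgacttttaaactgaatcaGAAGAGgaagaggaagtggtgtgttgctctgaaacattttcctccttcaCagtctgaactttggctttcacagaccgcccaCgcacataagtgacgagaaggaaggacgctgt
Bcl2a1a, plus strand, chr9:88956714-88956919: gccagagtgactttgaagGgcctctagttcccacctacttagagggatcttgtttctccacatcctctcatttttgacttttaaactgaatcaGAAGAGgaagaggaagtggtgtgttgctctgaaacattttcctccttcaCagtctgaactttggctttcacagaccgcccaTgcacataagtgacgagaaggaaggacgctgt

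Bcl2a1a and Bcl2a1b had 205 of 206 aligned bases in common (99.5%), Bcl2a1b and Bcl2a1d 198 of 206 (96.1%), and Bcl2a1a and Bcl2a1d 197 of 206 (95.6%). Each copy held 1 match to the PU.1 motif GAGGAAGT, found in 2.23% of the 21263 promoters of protein-coding genes, and 1 to the AP-1 motif TGANTCA, found in 6.13%. Both motifs were searched on both strands of the 250 bases upstream of each start. PU.1 is the transcription factor that specifies the macrophage lineage, and a match is a description of the letters, not a bound site. The sources used here do not say how the aligner placed reads that fit several copies, so peaks at the Bcl2a1 genes are uncertain as to copy.

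The other sequences shown are the 250 bases upstream of the first Bcl2l11 start, where a summit of oxLDL WT lay, and upstream of Bcl2, where an oxLDL WT peak covered 245 of the 250 bases. In the Bcl2l11 sequence, capitals mark the 142 bases inside the oxLDL WT peak. In the Bcl2 sequence, they mark the 7 matches to the Sp1 motif GGGCGG (both strands), a motif held by 42.6% of promoters.
Bcl2l11, plus strand, chr2:128125788-128126037: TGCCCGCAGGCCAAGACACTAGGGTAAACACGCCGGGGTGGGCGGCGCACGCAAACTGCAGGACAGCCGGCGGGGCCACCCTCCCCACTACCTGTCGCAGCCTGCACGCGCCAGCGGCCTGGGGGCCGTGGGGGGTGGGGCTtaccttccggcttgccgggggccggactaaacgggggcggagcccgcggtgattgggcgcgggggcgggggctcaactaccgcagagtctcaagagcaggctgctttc
Bcl2, minus strand, chr1:106714291-106714540: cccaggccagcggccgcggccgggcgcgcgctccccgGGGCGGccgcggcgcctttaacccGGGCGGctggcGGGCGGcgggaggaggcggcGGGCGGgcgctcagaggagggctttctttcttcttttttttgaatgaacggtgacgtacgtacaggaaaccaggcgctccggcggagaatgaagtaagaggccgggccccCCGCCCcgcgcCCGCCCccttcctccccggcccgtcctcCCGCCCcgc

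These 2 promoters were rich in G and C, at 72% in Bcl2l11 and 74.8% in Bcl2, against 44.8% in Bcl2a1b and Bcl2a1d and a median of 55.6% over all promoters. Bcl2l11 held 3 matches to the Sp1 motif, at 211, 74 and 46 bases upstream of its start. Neither held a match to the PU.1 or AP-1 motif. Among the other genes, Bak1 held a PU.1 match 22 bases upstream of its start, and Mcl1, Bid, Bax and Bcl2l1 held none.

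Lists differed in length and depth, which limits every comparison below. The lowest local background of a list, a measure of depth recovered from the authors' values, was 3.42 fragments in oxLDL KO, 3.76 in oxLDL WT, 3.84 in KO and 2.70 in WT. Where the background was at that level, the weakest listed peak rested on a pileup of 12 fragments in oxLDL KO, 12 in oxLDL WT, 15 in KO and 12 in WT. A site below that limit is missing from a list, and its signal is not known. Pileup here is the number of fragments over the summit, and fold enrichment is the authors' ratio of pileup to local background. In chromatin from many cells, fewer bound cells and less BRG1 per cell cannot be told apart. None of the 35 peaks lay in high background, defined as over 5 times the lowest of the list. As a check of the labelled cell type, 10 of 12 macrophage marker genes had a peak by the same rule in oxLDL KO and 12 of 12 in oxLDL WT, among them Spi1, Adgre1 and Tyrobp in both. Of 18 marker genes of lymphocytes, neutrophils and erythroid cells, 4 had one in oxLDL KO and 5 in oxLDL WT, shares near or below the 21.1% and 33.2% of all protein-coding genes. Cd3e, Ly6g and Gata1 had none in any list, but Tal1 had 3 peaks in oxLDL KO and 4 in oxLDL WT, up to a fold enrichment of 6.71. Cd4 had 4 and Klf1 1 in oxLDL WT alone, Elane and Ms4a1 had 1 in each oxLDL list, and Cd79a had 1 in oxLDL KO alone. In the short untreated lists, 1 of the 12 macrophage genes had a peak in KO and 1 in WT, and 0 of the 18 others in either, so the untreated lists say little about the cells.

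BRG1 peaks under oxLDL were found at 5 of the 10 genes in KO and at 9 of 10 in WT. Of the 21887 protein-coding genes, 21.1% had one in oxLDL KO and 33.2% in oxLDL WT. Mcl1, Bcl2, Bcl2l1, Bid and Bax had a peak in both libraries, against 17.5% of all genes. Bcl2a1b, Bcl2a1d, Bcl2l11 and Bak1 had one in oxLDL WT and none in oxLDL KO, against 15.6% of all genes. No gene of the family had a peak in oxLDL KO and none in oxLDL WT, against 3.55% of all genes, and Bcl2a1a had no peak in any of the 4 lists. The 10 genes had a median length of 8.69 kb, against 17.2 kb over all protein-coding genes. Bcl2 (176115 bp), Bcl2l1 (75072 bp), Bcl2l11 (36510 bp) and Bid (23944 bp) were longer than that second median. The shares were not adjusted for gene length. The genes were proposed with results of these data known, so their high share is a description and not evidence about the family.

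**Figure D1:**
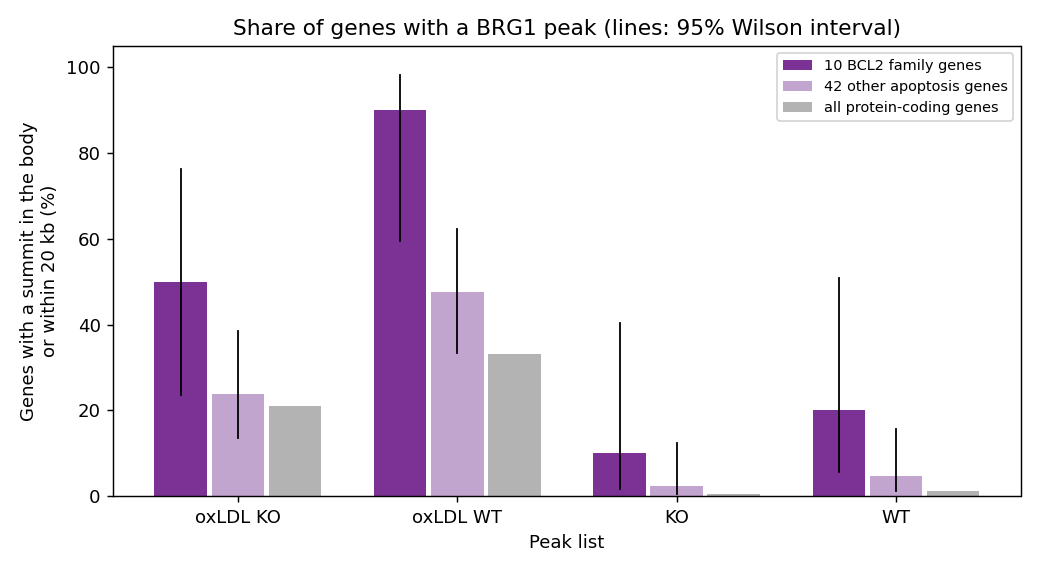
Share of genes (%, vertical axis) with a BRG1 summit in the gene body or within 20 kb, for each peak list (horizontal axis). Dark purple bars are the 10 BCL2 family genes, light purple bars 42 other apoptosis genes and grey bars all protein-coding genes, with Wilson 95% intervals as lines on the purple bars. The family stands at 50% in oxLDL KO and 90% in oxLDL WT.

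At the gene starts, peaks were found at fewer of the genes in oxLDL KO than in oxLDL WT. A summit within 1 kb of the gene's own RefSeq start was found at 1 of the 10 genes in oxLDL KO, Bid, and at 8 in oxLDL WT, all but Bcl2a1a and Bax. At Mcl1, Bcl2l1 and Bid, the start concerned lies inside the annotated gene and not at its 5′ end. Over the 17492 protein-coding genes with a start in the table, the shares were 9.84% in oxLDL KO and 16.3% in oxLDL WT. Of the 8 genes with such a peak in oxLDL WT, 12.5% also had one in oxLDL KO (Wilson 95% interval 2.24 to 47.1, counting error only). The same share over all genes was 42.4%, inside that interval, so the count does not set the family apart from other genes. With only peaks of −log10 q 5 or more, 1 of the 10 genes had a start peak in oxLDL KO, 4 in oxLDL WT, 0 in KO and 0 in WT. The shares of all genes at that limit were not computed. Without that limit, in untreated cells, Bcl2a1d had a start peak in KO, against 0.166% of all genes, and Bcl2a1b and Bcl2a1d in WT, against 0.303%.

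**Figure D2:**
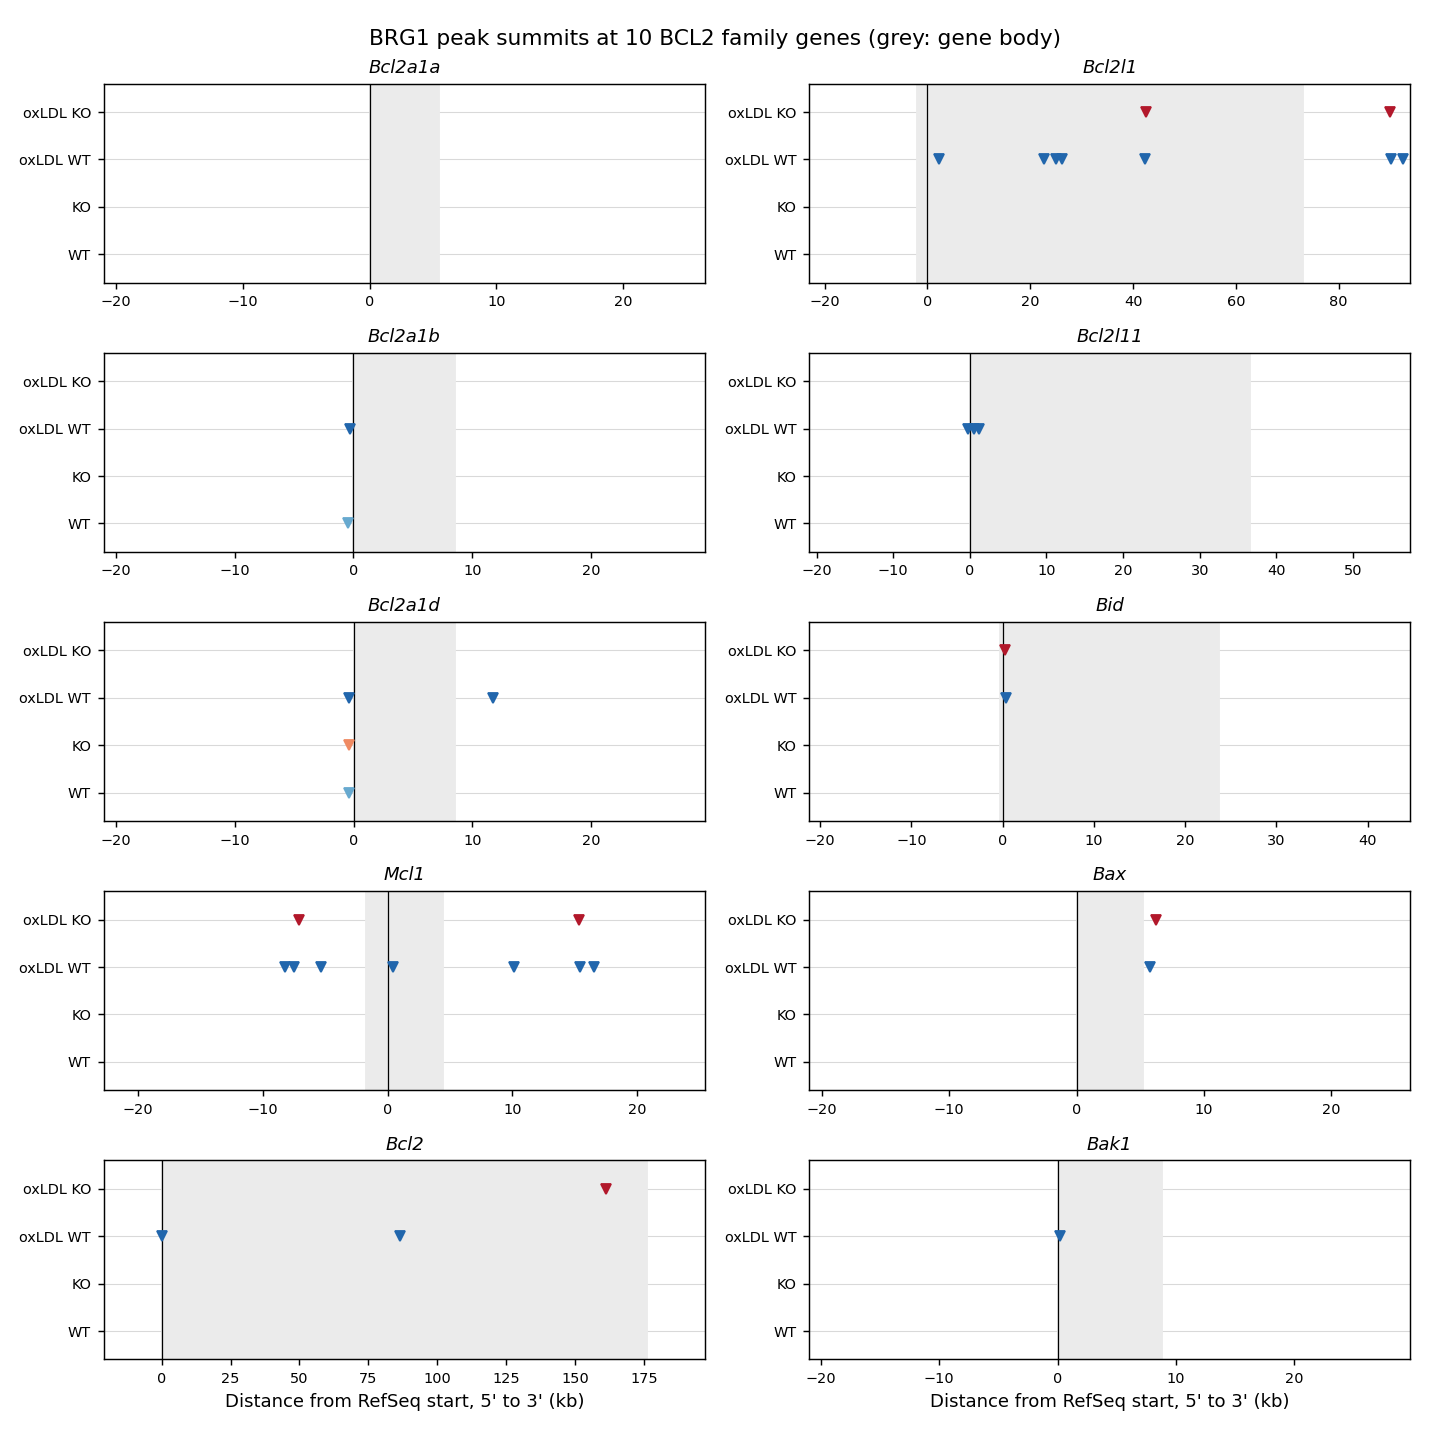
Summits of all BRG1 peaks (triangles) at the 10 genes in the 4 lists (rows), against distance in kb from the RefSeq start (the most upstream one where there are several), drawn 5′ to 3′. Grey marks the gene body, and each panel has its own horizontal scale. Summits of oxLDL WT and WT at Bcl2a1b, and of oxLDL WT, KO and WT at Bcl2a1d, stand just left of the start. No oxLDL KO summit is drawn at either gene.

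The Bcl2a1 genes encode the survival protein A1. Of the 10 genes, Bcl2a1b and Bcl2a1d were those with peaks in untreated cells, where all protein-coding genes had shares of 0.553% in KO and 1.19% in WT. Upstream of Bcl2a1d (chromosome 9, 88723288 to 88731850, minus strand), peaks lay at the same place in 3 libraries and oxLDL KO had none. Their summits were 357 bp upstream of the start in oxLDL WT (88732207), 391 bp in KO (88732241) and 354 bp in WT (88732204). The fold enrichment was 5.88 in oxLDL WT, 3.92 in KO and 4.59 in WT, on pileups of 27, 18 and 16 fragments in that order. The oxLDL WT value was higher than or equal to that of 97.1% of its list. The site lay inside the annotated gene Gm10634 as well. A further oxLDL WT peak, at 88720106 with a fold enrichment of 3.78, lay 3182 bp beyond the 3′ end of Bcl2a1d, inside Mthfsl and Gm10634 and 308 bp upstream of a start of Mthfsl.

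Upstream of Bcl2a1b (chromosome 9, 89199273 to 89207838, plus strand), a peak was listed in both WT libraries and in neither KO library. The summit lay 304 bp upstream of the start in oxLDL WT (89198969) and 450 bp upstream in WT (89198823). The fold enrichment was 6.30 in oxLDL WT, with a pileup of 29 fragments, and 4.05 in WT, with 14. The oxLDL WT value was the highest of that library at the family and was higher than or equal to that of 98.2% of its list. On the alignment of the copies, the Bcl2a1b start stands 44 bp downstream of the Bcl2a1d start. With the 6 bases missing from Bcl2a1d, the shift at the 5′ end of the block was 50 bp. By that shift, the Bcl2a1b summits, which lie beyond the block, were 254 bp upstream of the Bcl2a1d start in oxLDL WT and 400 bp in WT, beside 354 to 391 bp for the Bcl2a1d summits. The summits lay outside the 250 bases of the promoter table, and the oxLDL WT peaks reached into them by 62 bases at Bcl2a1d and 12 at Bcl2a1b. At Bcl2a1d the KO peak covered 27 of those bases and the WT peak 31.

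**Figure D3:**
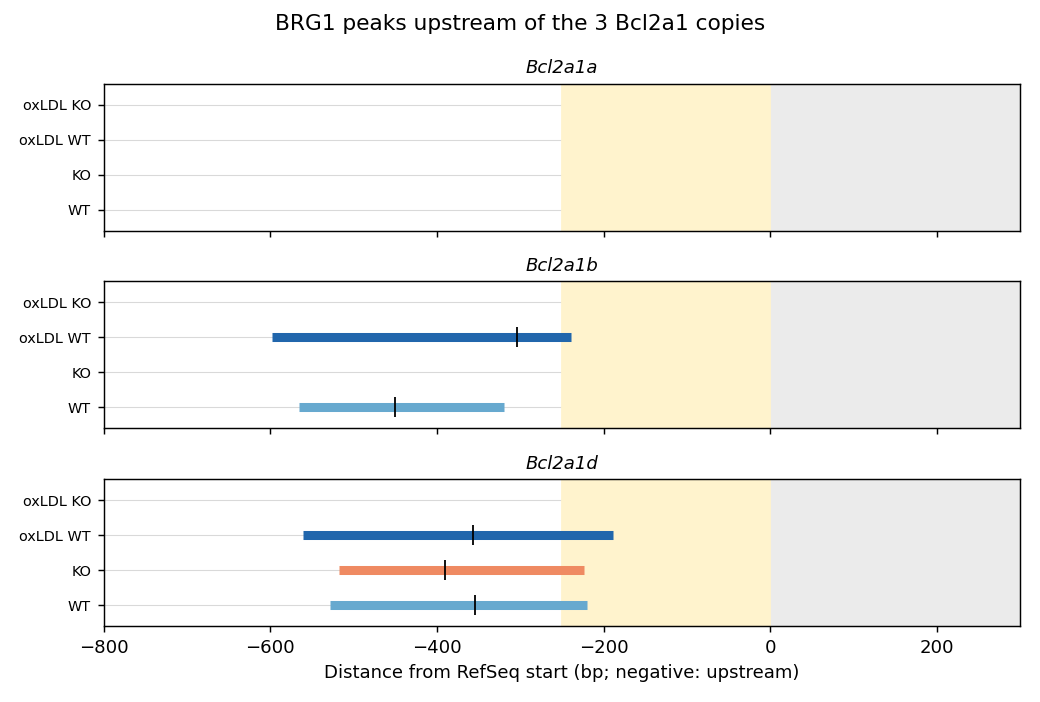
Extent of the BRG1 peaks (bars) and their summits (black ticks) upstream of Bcl2a1a, Bcl2a1b and Bcl2a1d, in bp from each RefSeq start, for the 4 lists (rows). Yellow marks the 250 bases of the promoter table and grey the gene. Bcl2a1d has peaks in oxLDL WT, KO and WT, Bcl2a1b in oxLDL WT and WT, and Bcl2a1a in no list.

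The oxLDL KO list had no peak over the 525 kb of chromosome 9 from 20 kb before Bcl2a1d to 20 kb after Bcl2a1b, where oxLDL WT had 3, KO 1 and WT 2. Its nearest summit lay 525 kb from the upstream Bcl2a1d peak and 57.9 kb from the Bcl2a1b peak. By a scaling for depth alone, both upstream oxLDL WT peaks, the 2 highest of that library at the family, would remain far above the listing limit of oxLDL KO. How well the immunoprecipitation worked and how reads were placed among the copies were not tested. Scaled to the oxLDL KO background, the oxLDL WT pileup would be 26.4 fragments at Bcl2a1b and 24.5 at Bcl2a1d, with −log10 p values of 15.0 and 13.3, against a lowest listed value of 3.96 in oxLDL KO. Of the 340 oxLDL WT peaks with a fold enrichment at or above that of the upstream Bcl2a1d peak, 65.3% were overlapped by an oxLDL KO peak, and these 2 were not.

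Between the untreated libraries, the upstream Bcl2a1d peaks overlapped, and the Bcl2a1b peak was in WT alone. Of all genes, 0.137% had a peak in both KO and WT, overlapping or not, and 1.06% in WT and not in KO. By the same overlap of at least 1 bp, 33.8% of all KO peaks were overlapped in WT and 19.0% of WT peaks in KO, and outside high background 6.59% of KO peaks were overlapped in WT. Both WT peaks were overlapped in oxLDL WT, as were 75.9% of all WT peaks and 75.8% of those outside high background. Genes with a peak in WT and none in oxLDL WT made up 0.132% of all genes, and none of them was of the family. The 1 KO peak was not overlapped in oxLDL KO, where 69.8% of all KO peaks were, or 56.0% of the 91 outside high background. Genes with a peak in KO and none in oxLDL KO made up 0.0959% of all genes, and Bcl2a1d was 1 of those 21. Of the 43 KO peaks overlapped in both WT and oxLDL WT, 3 (6.98%) had no oxLDL KO peak, or 3 of 6 (50%) outside high background, the Bcl2a1d peak among them. Bcl2a1a (chromosome 9, 88956920 to 88962416, plus strand), almost identical to Bcl2a1b in the block shown above, had no peak within its window. Bcl2a1c, another copy further along chromosome 9 and added after the values were seen, had none either.

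Mcl1 (chromosome 3, 95656944 to 95663179, plus strand) encodes a survival protein with a short life in the cell. It had 2 peaks in oxLDL KO and 7 in oxLDL WT, and 0 in KO and in WT. Both oxLDL KO peaks were overlapped by oxLDL WT peaks. They lay on either side of the gene and not at its start. The RefSeq start used, 95658721, lies inside the gene bounds given above, and distances to the start are from it. The upstream pair had summits 7145 bp before the start in oxLDL KO (95651576) and 7511 bp before it in oxLDL WT (95651210), with fold enrichments of 4.46 and 5.46. From the 5′ end of the gene, these summits were 5368 bp and 5734 bp away. The oxLDL WT peak was 1726 bp wide, the widest of the family, and the oxLDL KO peak 696 bp.

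The downstream pair had summits 10899 bp beyond the 3′ end of Mcl1 in oxLDL KO (95674078) and 10989 bp beyond it in oxLDL WT (95674168). The fold enrichment was 6.79 in oxLDL KO, on 29 fragments, and 5.46 in oxLDL WT, on 25. The oxLDL KO value was the highest of any peak at the family and was higher than or equal to that of 99.3% of its list. Of the 34 oxLDL KO peaks at or above it, 97.1% were overlapped in oxLDL WT. This site lay closer to Adamtsl4, at 2123 bp from its body in oxLDL KO, than to Mcl1.

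Mcl1 had 5 more peaks in oxLDL WT that no oxLDL KO peak overlapped. In the gene, 441 bp after the start at 95658721, a peak at 95659162 had a fold enrichment of 3.62. Upstream, peaks at 95650460 and 95653389 had 5.25 and 3.79. Downstream, peaks at 95668874 and 95675274 had 3.26 and 3.57. The peak at 95675274 lay 927 bp from the body of Adamtsl4 and 12095 bp beyond the 3′ end of Mcl1. The first of the upstream peaks was the highest of these 5, and it lay 1116 bp from the nearest oxLDL KO summit.

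Bcl2 (chromosome 1, 106538176 to 106714290, minus strand), the survival gene that gave the family its name, had 1 peak in oxLDL KO and 2 in oxLDL WT, none of them overlapping. The oxLDL KO peak lay deep in the gene, 161050 bp after the start (summit 106553240, fold enrichment 3.85). In oxLDL WT the higher peak lay at the start, with its summit 257 bp inside the gene (106714033, fold enrichment 4.83, width 1010 bp). The other lay 86476 bp after the start (106627814, fold enrichment 4.41). The gene counted as having a peak in both libraries although the nearest summits of the 2 libraries were 74.6 kb apart.

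Bcl2l1 (chromosome 2, 152758732 to 152833803, minus strand), which encodes BCL-XL, had 2 peaks in oxLDL KO and 7 in oxLDL WT. Both oxLDL KO peaks were overlapped in oxLDL WT. Inside the gene, the pair lay 39269 bp after the nearest start in oxLDL KO (152789220) and 39047 bp after it in oxLDL WT (152789442), with fold enrichments of 5.24 and 3.64. Their pileups were 28 fragments in oxLDL KO and 20 in oxLDL WT. Beyond the 3′ end, the other pair had summits at 152741677 in oxLDL KO and 152741603 in oxLDL WT, with fold enrichments of 5.09 and 4.62. That site lay 4267 bp from the gene Id1 in oxLDL KO and 17055 bp from Bcl2l1.

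The other 5 Bcl2l1 peaks of oxLDL WT had no oxLDL KO counterpart. Of these, 3 lay close together inside the gene, at 152805603, 152806646 and 152809097, with fold enrichments of 3.15, 4.41 and 3.15. Another lay 915 bp upstream of an internal start, at 152829404, with a fold enrichment of 2.94 and a pileup of 13 fragments, the lowest of the family. Scaled to the oxLDL KO background, its pileup would be 11.8 fragments. Rounded down to whole fragments, this gave a −log10 p of 3.63, under the lowest listed value of 3.96 there. The peak at 152805603, with a scaled pileup of 12.7 rounded down likewise, had 4.22. The call for the peak at 152829404 therefore turns on the rounding. Its absence from oxLDL KO was not distinguishable from a lack of depth. The last, at 152739200, lay 1790 bp from Id1 and 19532 bp beyond the 3′ end of Bcl2l1, with a fold enrichment of 3.19.

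Across the 6 survival genes, peaks numbered 5 in oxLDL KO at 3 genes and 19 in oxLDL WT at 5 genes. Across the 4 death genes they numbered 2 in oxLDL KO, at Bid and Bax, and 6 in oxLDL WT, at all 4 genes. The shares of all protein-coding genes with a peak were 21.1% in oxLDL KO and 33.2% in oxLDL WT. No death gene had a peak in KO or WT, where 0.553% and 1.19% of all genes had one.

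**Figure D4:**
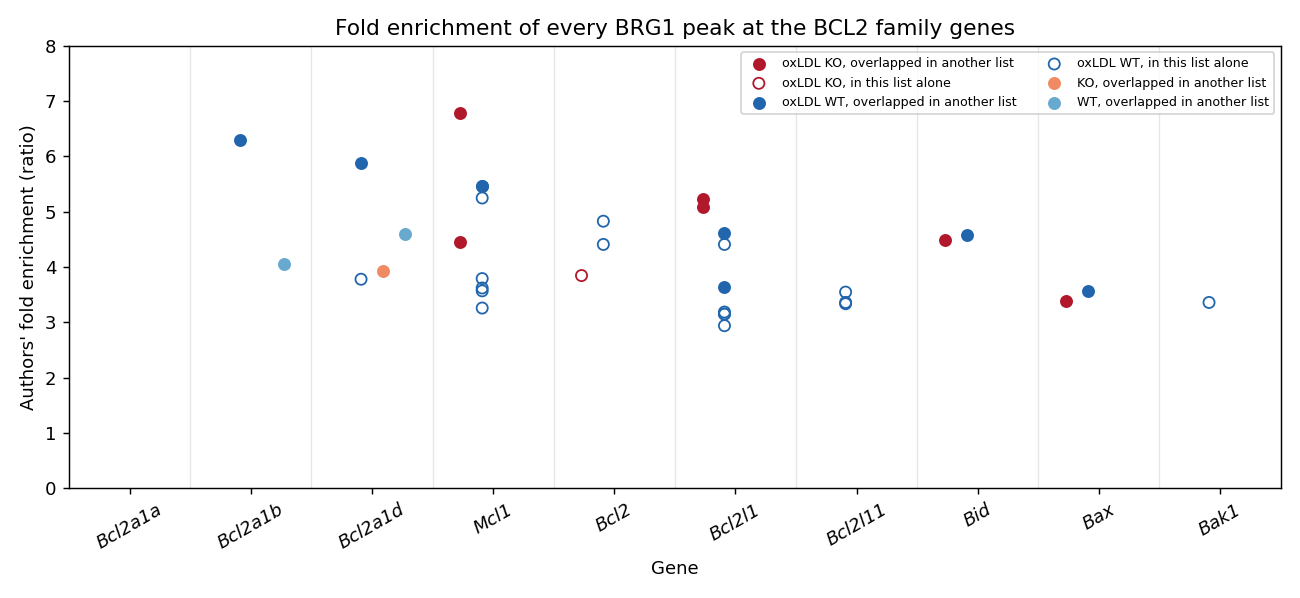
Authors' fold enrichment (vertical axis) of every peak at each gene (horizontal axis), with the lists side by side in the order oxLDL KO, oxLDL WT, KO, WT. Filled circles were overlapped by a peak of another list and open circles were not. The 2 highest oxLDL WT circles belong to Bcl2a1b and Bcl2a1d and have no oxLDL KO circle beside them.

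Bcl2l11 (chromosome 2, 128126038 to 128162547, plus strand) encodes BIM, a BH3-only protein that starts the mitochondrial pathway. It had 0 peaks in oxLDL KO and 3 in oxLDL WT, all around its annotated starts. Their summits lay 214 bp upstream of the first start (128125824), 553 bp after it (128126591) and 383 bp upstream of the second start (128127192). Their fold enrichments were 3.36, 3.34 and 3.55, all below the oxLDL WT list median of 3.75, on pileups of 15, 15 and 19 fragments. Scaled to the oxLDL KO background, the −log10 p values would be 4.84, 4.80 and 6.28, above the lowest listed value of 3.96. The nearest oxLDL KO summit was 58.0 kb from the first.

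Bid (chromosome 6, 120893119 to 120917062, minus strand) encodes a BH3-only protein that carries the signal of death receptors to mitochondria. It was the only gene of the 10 with a start peak in both oxLDL libraries. The summits lay 293 bp after the start in oxLDL KO (120916531) and 342 bp after it in oxLDL WT (120916482), 49 bp apart. The fold enrichment was 4.49 in oxLDL KO and 4.59 in oxLDL WT, on 22 and 21 fragments. The peaks shared 197 bp.

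Bax (chromosome 7, 45461695 to 45466903, minus strand) and Bak1 (chromosome 17, 27019812 to 27028627, minus strand) encode the pore-forming effectors. Neither had a peak of oxLDL KO at its start. Bax had 1 peak in each oxLDL library, beyond its 3′ end, by 1000 bp in oxLDL KO (45460695) and 586 bp in oxLDL WT (45461109). The fold enrichment was 3.39 in oxLDL KO and 3.57 in oxLDL WT, and the peaks shared 94 bp with summits 414 bp apart. These summits lay 809 bp and 1223 bp upstream of the start of Ftl1, which encodes the ferritin light chain, and that start was closer than the Bax start in both libraries. Bak1 had 0 peaks in oxLDL KO and 1 in oxLDL WT, 202 bp after its start (27028425), with a fold enrichment of 3.36 and a pileup of 15 fragments. The Bak1 peak also lay inside the annotated gene Ggnbp1.

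Joined by overlap, the 35 peaks made 26 sites. Of these, 6 were in both oxLDL lists, 17 in oxLDL WT alone, 1 in oxLDL KO alone, 1 in oxLDL WT and WT, and 1 in oxLDL WT, KO and WT. No site was in all 4 lists. Of the 7 oxLDL KO peaks, 85.7% were overlapped in oxLDL WT (Wilson 95% interval 48.7 to 97.4), against 59.6% of all oxLDL KO peaks. With summits within 200 bp as the match, the share of the 7 was 42.9%. The share of all oxLDL KO peaks by that rule was not computed, so 42.9% cannot be set against 59.6%. Of the 25 oxLDL WT peaks, 24% were overlapped in oxLDL KO (interval 11.5 to 43.4), against 27.3% of all oxLDL WT peaks. Both whole-list shares lie inside the intervals for the family. The 6 matched sites lay at Mcl1, Bcl2l1, Bid and Bax.

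Of the 10 genes, 7 had more peaks in oxLDL WT than in oxLDL KO and none had fewer, while Bid and Bax had 1 in each. Among all protein-coding genes, 24.4% had more in oxLDL WT, and the oxLDL WT list was longer as a whole. Of the 19 oxLDL WT peaks with no oxLDL KO counterpart, 18 would lie above the lowest listed −log10 p of oxLDL KO after scaling to its background. The remaining 1 is the Bcl2l1 peak 915 bp upstream of an internal start. Its place below that value turns on rounding the scaled pileup down to whole fragments. The lowest backgrounds, 3.42 fragments in oxLDL KO and 3.76 in oxLDL WT, were close, so scaling changed the values little. The lowest listed −log10 p values, 3.96 and 3.67, were close as well. The same count over all unmatched oxLDL WT peaks was not made, so the 18 do not set the family apart. Whether the immunoprecipitation worked equally well in the 2 libraries was not tested.

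**Figure D5:**
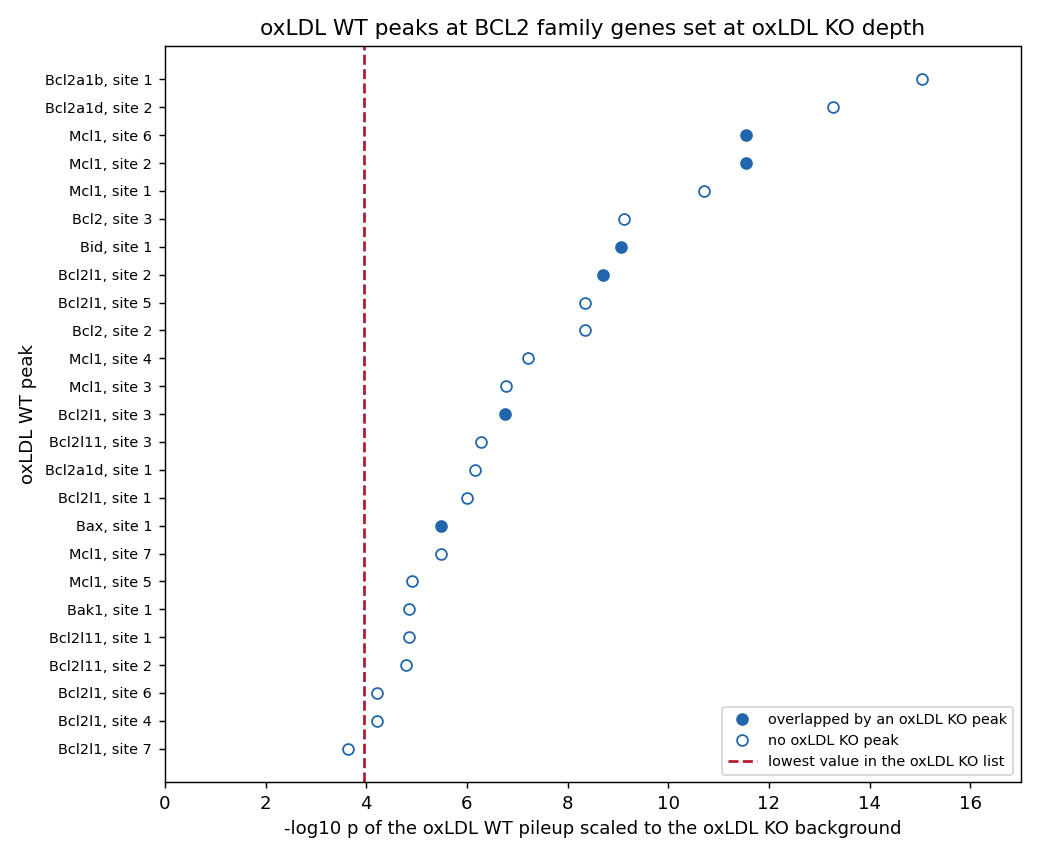
The −log10 p (horizontal axis) that each of the 25 oxLDL WT peaks (rows, sites numbered along the chromosome) would have with its pileup and background scaled to the oxLDL KO background. Scaled pileups were rounded down to whole fragments. Filled circles were overlapped by an oxLDL KO peak, open circles were not, and the dashed line is the lowest value listed in oxLDL KO, 3.96. Only site 7 of Bcl2l1 falls left of the line, and Bcl2a1b and Bcl2a1d stand farthest right.

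Treatment with oxLDL was compared within each genotype. In KO cells, 7 peaks at 5 genes were listed with oxLDL and 1 peak at 1 gene without, and none overlapped. Of all oxLDL KO peaks, 2.04% were overlapped in KO. In WT cells, 25 peaks at 9 genes were listed with oxLDL and 2 peaks at 2 genes without, and both untreated peaks were overlapped. Of all oxLDL WT peaks, 1.81% were overlapped in WT. The untreated lists were short as a whole. Scaled to the WT background, 12 of the 23 oxLDL WT peaks that WT lacked would lie above the lowest −log10 p listed in WT, 5.13, and 11 would lie below it. This split may depend on rounding scaled pileups down to whole fragments. The Bcl2l11 peak at 128127192, with a scaled pileup of 13.6, had 4.97 after that rounding. Scaled to the KO background, all 7 oxLDL KO peaks would lie above the lowest value listed in KO, 5.33. For the 11 oxLDL WT peaks, a WT site of the same relative strength would, after rounding down, fall under the WT listing limit, so its absence cannot be read. The lowest listed −log10 p was also higher in WT, 5.13, than in oxLDL WT, 3.67. Depth and this stricter limit were not told apart.

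The family peaks had fold enrichments of 3.39 to 6.79 in oxLDL KO, with a median of 4.49 against 3.85 for the list. In oxLDL WT they ran over 2.94 to 6.30, with a median of 3.64 against 3.75. The median widths were 371 bp in oxLDL KO, against 309 bp for the list, and 360 bp in oxLDL WT, against 368 bp. Of the 7 oxLDL KO peaks, 3 lay in gene bodies, 1 upstream and 3 downstream, and of the 25 oxLDL WT peaks 12, 6 and 7.

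The rest of the pathway was described with a list of 42 genes in the same way. Of these, 10 (23.8%) had a peak in oxLDL KO and 20 (47.6%) in oxLDL WT, against 21.1% and 33.2% of all protein-coding genes in the same lists. In both lists, 9 of the 42 had a peak, against 17.5% of all genes, so the oxLDL KO share was near that of any gene. In untreated cells, 1 of the 42 (2.38%) had a peak in KO and 2 (4.76%) in WT, against 0.553% and 1.19% of all genes. Among the 15 other BCL2 family genes, 3 had a peak in oxLDL KO and 7 in oxLDL WT. The oxLDL WT peaks counted for Bcl2l2 and Bcl2l13 lay inside other genes, Ppp1r3e and Atp6v1e1. Bbc3, which encodes the BH3-only protein PUMA, had 3 in oxLDL KO, up to 3.85, and 6 in oxLDL WT, up to 4.62. Its oxLDL KO peak 1688 bp after the nearest of its annotated starts overlapped peaks of oxLDL WT and WT. Bmf, another BH3-only gene, had an oxLDL WT peak 208 bp upstream of an internal start (fold enrichment 4.83) with no overlapping oxLDL KO peak. It also had an oxLDL KO peak with no match, nearer the 5′ end of the gene and 1028 bp after the start there. A matched pair lay further in. Bcl2l15 had a site listed in all 4 libraries, with fold enrichments of 4.30 in oxLDL KO, 5.88 in oxLDL WT, 3.72 in KO and 5.13 in WT, but this site lay inside the neighbouring gene Ptpn22, 26693 to 26734 bp from the Bcl2l15 start.

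Among genes of the apoptosome, caspases and factors released from mitochondria, 3 of 12 (25%) had a peak in oxLDL KO and 6 of 12 (50%) in oxLDL WT. The shares of all protein-coding genes were 21.1% and 33.2%. Every peak counted for Casp9, Htra2 and, among death receptor genes, Ripk1 lay inside or nearer to another gene. Apaf1, the scaffold of the apoptosome, had start peaks in both, with fold enrichments of 4.07 in oxLDL KO and 4.62 in oxLDL WT that did not overlap. Casp8, the initiator caspase of death receptors, had 1 peak in oxLDL KO (4.07) and 4 in oxLDL WT (up to 4.41). Among inhibitors of apoptosis, 1 of 5 (20%) had a peak in oxLDL KO and 2 of 5 (40%) in oxLDL WT. Among death receptor genes the counts were 2 of 7 (28.6%) and 3 of 7 (42.9%), beside the same shares of all genes. The TNF receptor gene Tnfrsf1a had matched start peaks, 4.53 in oxLDL KO and 4.83 in oxLDL WT. Cflar, which encodes the caspase-8 inhibitor c-FLIP, had 0 peaks in oxLDL KO and 4 in oxLDL WT, up to 4.38. Vdac1, an outer membrane channel gene, was the 1 gene of the 42 with a peak in oxLDL KO (3.90, at its start) and none in oxLDL WT.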

How the data were processed

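BRG1 ChIP-seq of macrophages was analysed from 1 deposited peak list per library, each called on its own. Per the labels' protocols, the immunoprecipitation used a kit that cuts chromatin with a nuclease, so fragment ends follow its cuts, and reads were paired. The tools credited to the submitters' processing notes are Trimmomatic 0.33, bcl2fastq 2.17, MACS3 and Bowtie2, on mm10. Their settings, and whether MACS3 used the input as its control, are not stated in the labels. The authors deposited a score per peak, which equals 10 times its −log10 q without decimals and was not used further. The authors' fold enrichment is the ratio of pileup to local background at the summit. Their −log10 p and −log10 q were used as deposited. A peak list holds no read totals.

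Pileup and background were solved from fold enrichment, taken as (pileup + 1)/(background + 1), and from p, taken as the Poisson tail. The pileup came out whole, to within 2% of the difference that 1 fragment makes to −log10 p, for 99.9% of peaks in oxLDL KO, 99.9% in oxLDL WT, 93.5% in KO and 97.9% in WT. For scaled values, pileup and background were multiplied by the ratio of the lowest backgrounds of the 2 lists. For the scaled −log10 p, the scaled pileup was then rounded down to whole fragments, which lowers the value. Scaled pileups are given before that rounding. The recovery and the overlap count were tested on simulated data.

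Gene bodies and starts came from RefSeq tables on GRCm38.p6, in which 21887 protein-coding genes lay on chromosomes 1 to 19, X and Y and 17492 had an annotated start. Peaks were matched by at least 1 bp. All 10 genes and every peak at them are named. The members and gene lists were chosen with earlier results of these data known, and the 1 kb rule for start peaks was chosen after the values were seen. Motifs for NF-kB, C/EBP (TTGCNNAA), CRE (TGACGTCA), IRF and NRF1 were also searched on both strands upstream of the starts. They are held by 0.372, 9.09, 1.92, 2.96 and 1.07% of promoters in that order, and at the 10 genes the 1 match was to C/EBP, at Bid. Wilson intervals of 95% cover counting error only. Python 3.11.15, scipy 1.17.1, statsmodels 0.14.6 and mafft 7.526 were used. Alternatives were another window, threshold, overlap or gene assignment.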

Additional observations from a re-analysis of the deposited data

Results flagged for a closer look

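Bcl2a1d was the 1 gene of the 10 at which oxLDL moved the number of listed peaks in opposite directions in the genotypes. In KO cells the number with oxLDL minus that without was -1 (0 peaks with oxLDL, 1 without), and in WT cells it was 1 (2 peaks with oxLDL, 1 without). The added WT peak was the one 3182 bp beyond the 3′ end of Bcl2a1d, inside Mthfsl and Gm10634 and 308 bp upstream of a start of Mthfsl. At the site upstream of Bcl2a1d, oxLDL KO had 0 peaks, oxLDL WT 1, KO 1 and WT 1, so the number in WT cells was the same with and without oxLDL. With 1 library per group this difference was not tested. Each count rests on whether the authors' caller listed a peak, and the fold enrichments were 5.88 and 3.78 in oxLDL WT, 3.92 in KO and 4.59 in WT.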

How the results depend on the processing

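Of the 14 counts and shares recomputed under the alternatives, 62 values stayed within the limit set for each (1.5 times for a count, the main interval for a share) and 24 did not. The main values were 7, 25, 1 and 2 peaks and 5, 9, 1 and 2 genes in oxLDL KO, oxLDL WT, KO and WT. With a window of 5 kb, oxLDL KO had 4 peaks. With gene bodies alone, oxLDL KO had 3 peaks at 3 genes, oxLDL WT 12 peaks, and KO and WT each 0 peaks at 0 genes. At a −log10 q of at least 5, oxLDL KO had 4 peaks at 3 genes, oxLDL WT 10 peaks, and KO and WT each 0 peaks at 0 genes, and genes with a start peak numbered 4 in oxLDL WT, 0 in KO and 0 in WT. That start-peak count, and the distances of 500 bp and 2 kb tried for it, were chosen after seeing the data. Counting only peaks for which the gene is the nearest protein-coding one, oxLDL KO had 4 peaks, KO 0 peaks at 0 genes, and WT 1 peak at 1 gene, since Gm10634 also covers the Bcl2a1d site. With summits within 200 bp as a match, 42.9% of the oxLDL KO peaks were matched in oxLDL WT. The fall in counts under the smaller windows and stricter limits follows from fewer peaks being counted. No paired analysis was possible because each group holds 1 library. Pileups of 13 to 29 fragments in the oxLDL lists limit how well a single peak is told from none.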
